A study of Mus musculus with 4 samples.

Results

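The genes described here are the hypoxia-inducible factor (HIF) subunits Hif1a, Epas1, Hif3a, Arnt and Arnt2, the HIF prolyl hydroxylases Egln1, Egln2 and Egln3, the ubiquitin ligase subunit Vhl, and Vegfa, a classical HIF target. They are 10 of the 32285 genes in the count tables and were taken by symbol. The group was picked with results of these data in view, because Hif3a had been seen to be higher in oligodendrocyte precursors of the mutant mice. The genotype contrast in that class is therefore given as values without a test, and the members are tested in the other classes and in the sum of the nuclei outside it.

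The samples were hippocampi from both hemispheres of Cyfip2+/R87C knock-in (KI) mice, heterozygous for an arginine-to-cysteine change in Cyfip2, and of wild-type (WT) littermates. All 4 mice were on the C57BL/6N background and were taken at postnatal week 28. Each genotype had 2 mice with 1 single-nucleus RNA-seq library each. Cyfip2 encodes a subunit of the WAVE complex, which regulates actin assembly. The alteration is in the germ line, so every cell class carried it. The treatment label of KI library 2 reads R88C where the other labels read R87C, and the library was kept in the KI group its genotype label gives. The labels put all 4 libraries in the same batch and do not give the sex of the mice.

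HIF transcription factors are dimers of an oxygen-regulated alpha subunit and a stable beta subunit. When oxygen is present, prolyl hydroxylases modify the alpha subunits, the von Hippel-Lindau protein Vhl recognises the modified form, and the subunit is degraded. When oxygen falls, the alpha subunit persists, pairs with Arnt or Arnt2 and binds a short core motif at target genes for glycolysis, blood vessel growth and the hydroxylases themselves. Most of this control acts on protein, which RNA counts do not measure.

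The core HIF motif was searched for in RefSeq promoters (GRCm38.p6), each taken as the 250 bases before the gene's start. The letters ACGTG and GCGTG were searched on both strands. Of 32851 promoters, 12679 (38.6%) held at least 1 match and 16.7% held 2 or more, so a match is common. Promoters were found for 9 members, all but Epas1, in 11 windows, and 8 windows of 7 members held a match. The windows of Hif3a, Egln3 and Vegfa are shown because the genotype differences described below turn on these genes. All lie on the minus strand of the assembly and are printed 5′ to 3′ along the gene, with motif matches on either strand in capitals. They cover chr7:17062428-17062677, chr12:54203875-54204124 and chr17:46032378-46032627, in the order printed.
Hif3a: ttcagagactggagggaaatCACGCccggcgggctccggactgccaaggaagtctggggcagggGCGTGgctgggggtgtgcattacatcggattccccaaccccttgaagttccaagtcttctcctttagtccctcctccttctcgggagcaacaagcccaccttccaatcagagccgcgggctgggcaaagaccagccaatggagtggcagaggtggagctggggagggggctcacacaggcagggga
Egln3: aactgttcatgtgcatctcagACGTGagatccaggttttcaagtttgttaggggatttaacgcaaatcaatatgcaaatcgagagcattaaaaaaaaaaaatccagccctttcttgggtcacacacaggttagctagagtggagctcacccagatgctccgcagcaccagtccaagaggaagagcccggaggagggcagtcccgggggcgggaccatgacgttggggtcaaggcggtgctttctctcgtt
Vegfa: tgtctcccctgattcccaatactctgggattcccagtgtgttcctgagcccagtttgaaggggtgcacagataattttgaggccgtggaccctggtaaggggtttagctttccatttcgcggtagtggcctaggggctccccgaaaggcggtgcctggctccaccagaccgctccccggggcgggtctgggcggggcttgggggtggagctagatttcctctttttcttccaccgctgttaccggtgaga
The Hif3a window holds 2 matches, the Egln3 window 1 and the Vegfa window none. A second Vegfa window, at an internal start, holds 2. A match describes these letters only and is not evidence of binding.

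The files held 12665 to 16055 barcodes and 73009975 to 80913580 unique molecular identifiers (UMIs) per library, and 11932 to 14927 nuclei per library passed the filters. Clusters were named by the cell type whose marker genes they carried, so that each name stands for nuclei like that type. Of 16 named classes, 13 had at least 20 nuclei in every library, among them dentate gyrus (DG) granule neurons, CA1 and CA3 pyramidal neurons, astrocytes, oligodendrocytes and oligodendrocyte precursors. Another 2011 to 4176 nuclei per library stayed unnamed. Pairs of libraries shared 40 to 67 barcodes. The KI libraries differed more from each other than the WT libraries did, with a chi-square per degree of freedom of 46.3 against 16.5 over genes. Over all nuclei the WT libraries held 182 and 180 Cyfip2 UMIs per 1e6 UMIs (CPM), and the KI libraries 172 and 171, a log2 difference of -0.03 (adjusted p = 0.852). Counts per gene do not show the altered base, so Cyfip2 checks no label here. Oligodendrocytes and DG granule neurons clustered by genotype. Cluster 4 held 2017 and 1229 WT but 36 and 79 KI oligodendrocytes, and cluster 6 held 41 and 10 WT but 2069 and 782 KI. For DG granule neurons, cluster 0 held 4054 and 3068 WT against 144 and 621 KI nuclei, and cluster 2 held 209 and 186 WT against 2276 and 1561 KI. CA1 pyramidal neurons were split in part, with 1868 and 1281 WT and 1317 and 1487 KI nuclei in cluster 1 but 532 and 412 WT against 72 and 127 KI nuclei in cluster 16. Oligodendrocyte precursors formed 1 cluster of 376 and 297 WT and 368 and 325 KI nuclei, and so did astrocytes, with 557 and 602 WT against 212 and 290 KI nuclei. Without doublet removal, the precursors split by genotype as well, into a cluster of 239 and 226 WT but 9 and 59 KI nuclei and another of 18 and 9 WT but 287 and 107 KI nuclei.

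Values below are UMIs summed over the nuclei of a class in a library, as CPM, given in the order WT 1, WT 2, KI 1, KI 2. Log2 differences are KI minus WT with their standard error (SE) from edgeR's quasi-likelihood test on the summed counts, fitted across all genes of the class, and adjusted p-values are Benjamini-Hochberg values over all those genes. A p under 0.05 after adjustment was called. CPM is not corrected for transcript length, so levels are compared between classes within a gene and never between genes.

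Across the 13 classes the members fell into genes of even and of uneven expression. Arnt, the constitutive beta subunit, had a mean over the 4 libraries of 73.6 CPM in committed oligodendrocyte precursors, the lowest, and 123 CPM in Cajal-Retzius cells, the highest, a 1.67-fold span. Hif1a spanned 2.79-fold, Egln1 2.66-fold, Vhl 3.38-fold, Egln2 3.78-fold and Arnt2 4.08-fold. Epas1 spanned 174-fold, Hif3a 96.5-fold and Vegfa 22.4-fold, and Egln3 had no UMI in mural cells. With both genotypes pooled, neighbouring classes in the order mostly could not be told apart. Their ranges over the 4 libraries overlapped at every step for Hif1a, Hif3a, Arnt2, Egln1 and Egln2, and at all but 1 step for each of the other 5 genes. Such ranges, like the SDs over n = 4 given below, include any genotype difference. In the WT libraries alone, Hif3a lay at 181 and 219 CPM in astrocytes and at 55.8 and 88.9 CPM in oligodendrocytes. It lay there at 50.7 and 44.4 CPM in fibroblasts and at 18.3 and 26.6 CPM in oligodendrocyte precursors, without overlap among these classes. Class levels are a description, because the classes were built from the same nuclei.

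**Figure D1:**
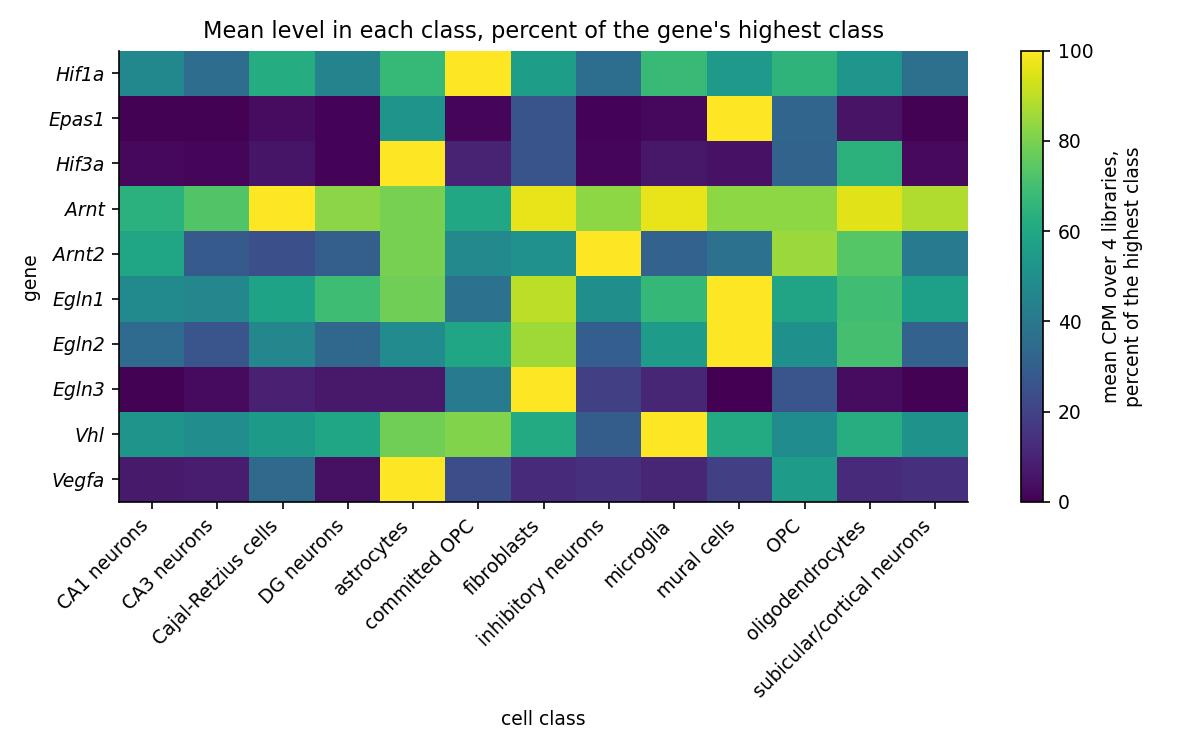
Mean CPM over the 4 libraries for each member (rows) in each of the 13 classes (columns), as a percent of that gene's highest class. Hif3a, Epas1 and Vegfa are concentrated in glial or vascular classes, while Arnt and Hif1a stay within 1.67-fold and 2.79-fold over all classes.

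Hif3a encodes an alpha subunit whose spliced forms include inhibitors of the other HIF complexes. The gene lies at chr7:17031507-17062427 on the minus strand (GRCm38) and overlaps the gene 4833404L02Rik on the other strand. In oligodendrocyte precursors, the proliferating cells that give rise to myelinating oligodendrocytes, it lay at 18.3, 26.6, 141 and 113 CPM, from 21, 25, 147 and 181 UMIs. Both KI libraries stood far above both WT libraries, with a log2 difference of 2.63 (SE 0.26). The share of precursor nuclei with a Hif3a UMI was 5.32%, 6.73%, 30.7% and 35.4%. In DG granule neurons, the class with the lowest mean, the share was 0.798%, 0.615%, 2.11% and 0.871%, at a median of 3730 to 4411 UMIs per nucleus against 2347 to 2847 in precursors. The precursor share in both WT libraries was thus above that of DG granule neurons of every library, although the DG nuclei were sampled more deeply. With each precursor nucleus thinned to 1500 UMIs, which left out 34 to 66 nuclei per library, the share was 2.58%, 3.04%, 20.8% and 15.7%. The precursor contrast led to the choice of these genes, and 3 of 10734 genes tested in the class (0.0279%) were called, so nothing is read from its size.

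Markers of mature oligodendrocytes moved with Hif3a in the precursor nuclei. Their summed level was 1575, 1481, 1759 and 2079 CPM, 4 of the 7 markers were higher in both KI libraries, and none was at 0. Cajal-Retzius markers moved too, at 88.9, 90.6, 147 and 211 CPM, with 3 of 6 higher and 0 lower. Of 17 lists of other types, these 2 had a higher sum in both KI libraries and 3 a lower one. In the 169 to 244 precursor nuclei per library with no UMI of Mog, Mag, Mobp or Opalin, a restriction chosen after seeing the data, Hif3a lay at 5.82, 14.7, 120 and 105 CPM, a log2 difference of 3.58. The KI libraries were above the WT libraries in these nuclei too, and the part of myelin and other transcripts in the difference was not tested. Committed precursors, the step between precursors and oligodendrocytes, had no Hif3a UMI in WT and 5 and 6 in KI. Over the group, the KI level was 3.22-fold a floor of 3 WT counts. The floor allows for counting error in WT only, not for that in KI or for spread between mice. There were 27 to 46 nuclei per library and no test, since Hif3a did not pass the low-count filter there.

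In oligodendrocytes, Hif3a lay at 55.8, 88.9, 279 and 178 CPM, from 188, 185, 954 and 255 UMIs. These are the same 4 libraries whose precursor values led to the choice of genes. Both KI libraries were above both WT libraries, and the rise of 1.76 (SE 0.28) on the log2 scale was called (adjusted p = 0.0265), in a class where 0.895% of the genes tested were called. The share of nuclei with a UMI was 8.02%, 12.99%, 33.2% and 22.4%. The WT nuclei came mostly from cluster 4 and the KI nuclei mostly from cluster 6. Summed astrocyte markers in this class were 475, 530, 430 and 470 CPM, lower in both KI libraries, and 3 of 8 were higher and 5 of 8 lower in both KI libraries. Summed precursor markers were 86.7, 72.6, 141 and 120 CPM, higher in KI, with 2 of 5 higher and 1 lower in both KI libraries and none at 0. Summed microglia markers were 196, 190, 224 and 228 CPM, with 5 of 7 higher and 1 lower in both KI libraries, and summed Cajal-Retzius markers 49.0, 49.998, 64.4 and 80.2 CPM, with 3 of 6 higher and 1 lower. These 3 of 17 lists of other types had a higher sum in both KI libraries and 4 a lower one, and their part in the Hif3a difference was not tested. In oligodendrocytes with no UMI of Pdgfra, Cspg4, Vcan, Aqp4, Gja1 or Slc1a3, again chosen after seeing the data, Hif3a lay at 58.9, 89.2, 280 and 173 CPM, a log2 difference of 1.72 (adjusted p = 0.0364). The call was lost when each nucleus was assigned by its own marker UMIs in place of clusters (1.60, adjusted p = 0.338).

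Astrocytes, which support neurons and contact blood vessels, had the highest mean Hif3a level, 233 ± 42.4 CPM (SD, n = 4). It lay at 181, 219, 259 and 275 CPM, from 162 to 320 UMIs. The KI libraries were above the WT libraries by a log2 difference of 0.47 (SE 0.19), which did not pass the test (adjusted p = 0.370). In this class 0.131% of the genes tested were called, and no member was, with 3 of 9 members at an unadjusted p under 0.05, beside 11.6% of genes. In microglia, the resident macrophages of the brain, Hif3a lay at 4.63, 7.98, 20.7 and 28.2 CPM on 4 to 16 UMIs per library, a log2 difference of 2.02 (adjusted p = 0.728). Without doublet removal, where the microglia were fewer and Hif3a had 1 UMI in each WT and 13 in each KI library, the difference was 3.95 and was called (adjusted p = 0.0390). None of the 9260 genes tested in microglia was called (0%), with 586 at an unadjusted p under 0.05 and 1 called by DESeq2.

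**Figure D2:**
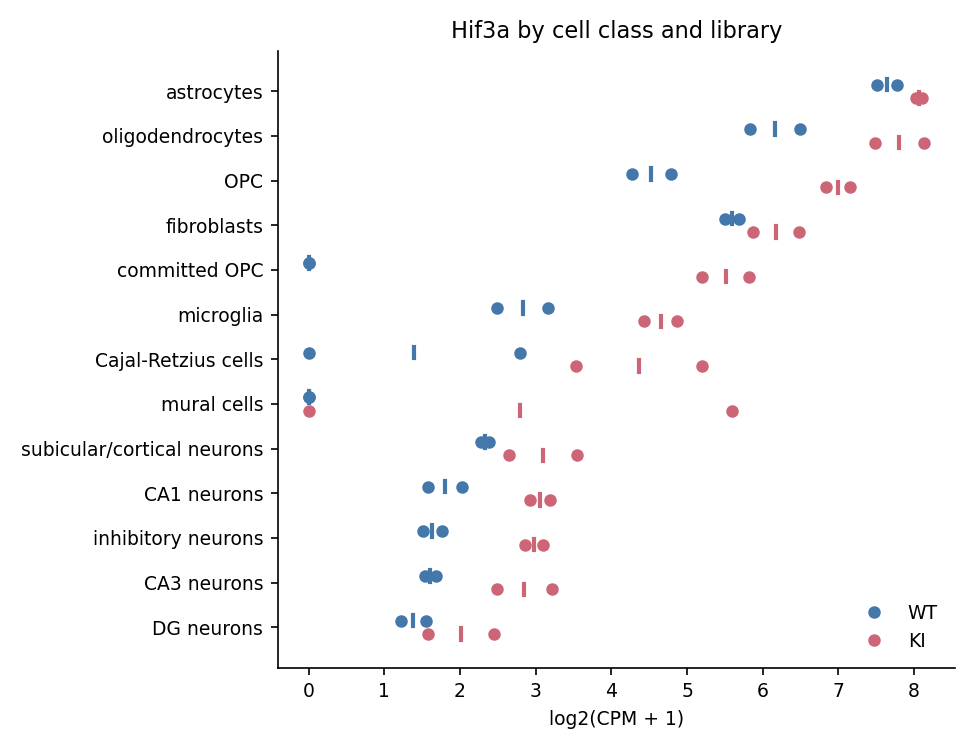
Hif3a in each library as log2(CPM + 1), by class, with points for libraries and short lines for genotype means. In oligodendrocyte precursors WT lay at 18.3 and 26.6 and KI at 141 and 113 CPM, while in astrocytes WT already lay at 181 and 219 CPM.

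Neurons held little Hif3a. In CA1 pyramidal neurons it lay at 3.09, 1.98, 8.11 and 6.58 CPM, on 22 to 84 UMIs per library. Both KI libraries were above both WT libraries, and the rise of 1.62 (SE 0.31) was called (adjusted p = 0.0269), where 7.28% of genes were called, but not without WT library 2 (adjusted p = 0.0729). Within CA1 cluster 1 alone, which held most CA1 nuclei of every library and was looked at after seeing the data, the values were 2.51, 1.99, 8.45 and 6.47 CPM. In CA1 cluster 16 they were 4.78, 1.95, 1.88 and 7.90 CPM, on 1 to 16 UMIs per library, and the genotypes overlapped. In inhibitory neurons, it lay at 1.85, 2.38, 6.25 and 7.55 CPM on 11 to 61 UMIs. The rise of 1.80 (SE 0.33) was called (adjusted p = 0.0284), where 1.78% of genes were called, and missed the threshold with DESeq2 (adjusted p = 0.0541) and without WT library 1 (0.231) or WT library 2 (0.120). In CA3 pyramidal neurons the values were 2.21, 1.90, 8.30 and 4.60 CPM, a log2 difference of 1.75 that missed the threshold (adjusted p = 0.0586), where 2.19% of genes were called, and passed it in 5 of 14 alternatives, among them DESeq2 (0.0446) and the fits with no low-count filter (1.38e-05) and without KI library 1 (0.0333) or KI library 2 (1.32e-08). In DG granule neurons they were 1.92, 1.33, 4.44 and 1.99 CPM (1.13, adjusted p = 0.160), where 9.97% of genes were called. Without KI library 1 the difference was 0.37 (adjusted p = 0.601), without KI library 2 it was 1.60 and called (2.97e-05), and it was also called with no low-count filter (0.0443).

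Transcripts of other cells were counted in neuron nuclei as well. Per nucleus, CA1 neurons held 8.70% to 18.7% as many Hif3a UMIs as oligodendrocytes of the same library, and inhibitory neurons 9.67% to 16.5%. For the myelin genes Mog and Mobp the CA1 share was 2.75% to 4.26% and 2.44% to 4.91%, and for Mag and Opalin it was 5.43% to 10.2% and 5.03% to 12.8%. The Hif3a share of CA1 neurons thus lay above those of Mog and Mobp and overlapped those of Mag and Opalin. The part of RNA from other cells in the neuronal differences was not tested.

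**Figure D3:**
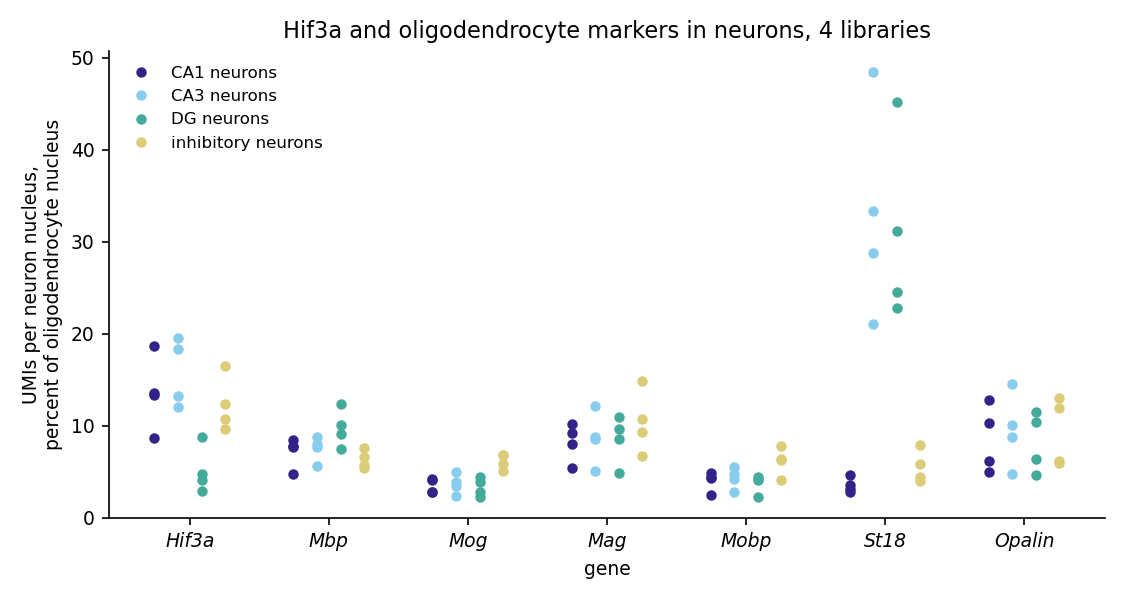
UMIs per nucleus in neuron classes as a percent of UMIs per nucleus in oligodendrocytes of the same library, for Hif3a and for 6 of the 7 oligodendrocyte marker genes, with each point a library. Hif3a in CA1 neurons (8.70% to 18.7%) lies above Mog (2.75% to 4.26%) and overlaps Opalin (5.03% to 12.8%).

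Over all nuclei, Hif3a lay at 9.74, 11.5, 31.1 and 21.5 CPM, precursors included. With the precursors left out, a sum added after seeing the data, it lay at 9.60, 11.3, 29.4 and 19.4 CPM, and the log2 difference of 1.28 (SE 0.24) missed the threshold (adjusted p = 0.0652). It passed with DESeq2 (1.13e-05), with no low-count filter (0.0393) and with the replicate number as a block (0.00628). With 1 library left out, the difference ranged from 0.91 (without KI library 1) to 1.56 (without KI library 2). Such a sum cannot tell a change in the number of nuclei of a class from a change in RNA per nucleus. None of the 10 members was called outside the precursors by edgeR, where 0.858% of 21669 genes were. Hif3a and Vegfa had an unadjusted p under 0.05, as did 24.3% of all genes, and DESeq2 called Hif3a and 8.5% of all genes.

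Of 120 pairs of a member and a class outside oligodendrocyte precursors, 82 passed the low-count filter and were tested, and 4 were called, all higher in KI, where 1.62% of the pairs of all genes in these 12 classes were called higher. These were Hif3a in oligodendrocytes, CA1 and inhibitory neurons, and Egln3 in DG granule neurons. At an unadjusted p under 0.05 there were 14 of the 82 pairs (17.1%), beside 16.98% of the pairs of all genes. No gene was called in Cajal-Retzius cells, committed precursors, fibroblasts, microglia, mural cells or subicular or cortical excitatory neurons (0% each), with 248, 88, 341, 586, 56 and 1094 genes at an unadjusted p under 0.05 and 0, 0, 2, 1, 0 and 18 called by DESeq2, in that order. With 1 to 3 members past the filter, mural cells, committed precursors and Cajal-Retzius cells hardly tested the group. In simulated counts, 41.8% of 2-fold and 97.9% of 4-fold changes were recovered in oligodendrocytes, and 38.5% and 91.8% in astrocytes. Changes of 2-fold in these classes were thus often missed in the simulation. It gave all genes of a class 1 common spread, the same in both genotypes, and did not vary depth. The real KI libraries differed more from each other than the WT libraries did, so recovery in the real counts may differ.

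Epas1, which encodes the alpha subunit HIF-2 alpha, was a vascular gene here. In endothelial cells, where it supports vessel growth, it lay at 838, 891, 1281 and 1167 CPM, from 50, 51, 79 and 103 UMIs in 37, 12, 24 and 30 nuclei. Both KI libraries lay above both WT libraries, but the class was not tested, since WT library 2 had fewer than 20 of these nuclei. Clusterings that gave a larger endothelial class allowed a test. With the members kept among the clustering genes, in 340 and 232 WT and 185 and 202 KI nuclei of a mixed cluster, with mural cell and DG granule neuron markers raised too and Hbb-bs and Hba-a1 among its leading genes, Epas1 was called higher in KI (log2 1.38, adjusted p = 0.00542), and at a clustering resolution of 2 in place of 1, in 148 and 52 WT and 103 and 98 KI nuclei, it was not (log2 0.48, adjusted p = 0.883). The next levels were 162 ± 115 CPM in mural cells, 84.1 ± 20.7 in astrocytes, 52.8 ± 21.9 in oligodendrocyte precursors and 41.7 ± 13.8 in fibroblasts (SD, n = 4), while CA1 neurons averaged 0.930 CPM. In astrocytes, it lay at 96.4, 74.5, 105 and 59.9 CPM, with overlapping genotypes and a log2 difference of 0.00 (SE 0.28). In oligodendrocyte precursors the values were 61.9, 78.9, 40.2 and 30.03 CPM, lower in both KI libraries, a log2 difference of -0.89 (SE 0.25) given without a test. Without the precursor nuclei that carried myelin UMIs, the values were 69.8, 80.2, 40.4 and 56.2 CPM. None of the 7 classes tested outside precursors was called (lowest adjusted p = 0.555).

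Hif1a, the broadly expressed alpha subunit and the best-known oxygen sensor output, moved little. Its means ran from 33.7 CPM in CA3 pyramidal neurons to 94.2 CPM in committed precursors. Its log2 differences lay between -0.19 and 0.30 in 11 classes, none was called, and the lowest adjusted p was 0.838. Over all nuclei, it lay at 41.9, 44.8, 42.5 and 37.9 CPM, so the genotypes overlapped. In oligodendrocyte precursors, it lay at 65.4, 68.2, 60.3 and 51.3 CPM.

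The beta subunits differed in pattern from each other. Arnt varied least among classes and was called in none of 10. In inhibitory neurons, it lay at 93.9, 94.9, 109 and 110 CPM, a log2 difference of 0.32 (SE 0.11, adjusted p = 0.145), and in oligodendrocyte precursors at 86.3, 99.1, 108 and 113 CPM, higher in both KI libraries. Arnt2, the other beta subunit, averaged 232 ± 24.2 CPM in inhibitory neurons and 197 ± 37.0 in oligodendrocyte precursors (SD, n = 4). Its lowest mean was 56.8 ± 11.3 CPM, in Cajal-Retzius cells. Its means of 184 CPM in astrocytes and 170 CPM in oligodendrocytes were above those of the excitatory neuron classes. These were 136 CPM in CA1, 96.5 in subicular or cortical, 70.3 in DG granule and 65.7 in CA3 neurons. The ranges of oligodendrocytes and CA1 neurons overlapped. In DG granule neurons Arnt2 lay at 81.0, 84.4, 59.6 and 56.1 CPM. Both KI libraries were below both WT libraries, with a log2 difference of -0.38 (SE 0.11, adjusted p = 0.0769). It was called, among other settings, when library totals replaced the TMM factors (-0.51) and with no low-count filter (-0.41). Over 14 alternatives it ranged from -0.51 to -0.13. CA3 pyramidal neurons had 55.4, 61.9, 84.1 and 61.4 CPM, with overlapping genotypes and a log2 difference of the other sign (0.40, SE 0.17, adjusted p = 0.238).

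Among the prolyl hydroxylases, Egln1, the main oxygen sensor of the family, was near even over classes. In astrocytes, Egln1 lay at 28.4, 27.3, 44.8 and 40.0 CPM, higher in both KI libraries but not called (log2 0.65, SE 0.27, adjusted p = 0.381). In endothelial cells its values were 67.1, 87.4, 146 and 181 CPM on 4 to 16 UMIs, with no test. Egln2, whose product is mainly nuclear, lay at 24.3, 17.3, 26.1 and 30.7 CPM in oligodendrocytes (log2 0.46, adjusted p = 0.404) and was called in none of 8 classes. Egln3, which is itself a HIF target, had few UMIs. Its highest mean, 16.3 CPM in fibroblasts, rested on 2, 10, 1 and 3 UMIs. In DG granule neurons, it lay at 0.452, 0.666, 1.71 and 1.57 CPM, from 8, 10, 20 and 15 UMIs. Both KI libraries were above both WT libraries and the rise of 1.69 (SE 0.40) was called (adjusted p = 0.0491), but 8 of 14 alternatives lost the call, among them DESeq2 (0.218) and the fits without WT library 1 (0.464), WT library 2 (0.287) or KI library 1 (0.0505). In oligodendrocyte precursors, Egln3 had 7, 3, 3 and 8 UMIs and did not pass the filter.

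Vhl, the substrate recognition subunit that marks hydroxylated alpha subunits for degradation, was called in none of 8 classes (lowest adjusted p = 0.187). In microglia, it lay at 23.2, 20.7, 47.7 and 28.2 CPM, from 13 to 30 UMIs. The KI libraries there were above the WT libraries without passing the test (log2 0.83, SE 0.38, adjusted p = 0.785). In oligodendrocyte precursors, Vhl lay at 11.3, 13.9, 19.2 and 13.8 CPM, with overlapping genotypes.

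Vegfa, the ligand that drives endothelial growth, had its highest means over the 4 libraries in astrocytes and oligodendrocyte precursors. In astrocytes, it lay at 130, 130, 44.8 and 61.4 CPM, from 164, 191, 28 and 43 UMIs, and the share of nuclei with a UMI was 22.1%, 24.9%, 13.2% and 13.4%. Both KI libraries were below both WT libraries by a log2 difference of -1.24 (SE 0.22), which missed the threshold (adjusted p = 0.0776) and passed it in 7 of 14 alternatives, among them DESeq2 (0.0484) and the fits without KI library 1 (0.00340) or KI library 2 (0.0329). Of the 17 marker lists of other cell types, 6 had a lower and 2 a higher sum in both KI libraries in these astrocytes. Mural cell markers lay at 134, 130, 110 and 95.6 CPM, fibroblast markers at 170, 194, 102 and 151 CPM and inhibitory neuron markers at 571, 576, 785 and 717 CPM, with 0, 1 and 2 markers higher and 3, 2 and 2 lower in both KI libraries and the mural marker Kcnj8 at 0. Summed oligodendrocyte markers were 926, 618, 727 and 932 CPM, with overlapping genotypes, and 4 of 7 were higher and 0 lower in both KI libraries. The part of these transcripts in the Vegfa difference was not tested. In oligodendrocyte precursors, Vegfa lay at 65.4, 86.3, 33.5 and 16.9 CPM, from 75, 81, 35 and 27 UMIs, a log2 difference of -1.51 (SE 0.33) given without a test. Without the precursor nuclei that carried myelin UMIs, it lay at 75.6, 108, 40.4 and 17.6 CPM, so both KI libraries again lay below both WT libraries.

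In DG granule neurons, Vegfa lay at 5.20, 5.13, 2.65 and 3.35 CPM (log2 -0.66, SE 0.24, adjusted p = 0.132), in inhibitory neurons at 14.5, 16.2, 8.58 and 11.9 CPM (-0.47, adjusted p = 0.264) and over the nuclei outside precursors at 10.6, 12.6, 7.80 and 8.06 CPM (-0.50, SE 0.15, adjusted p = 0.137). The KI libraries were lower in each, and none was called. CA3 pyramidal neurons had 5.34, 7.47, 7.504 and 8.73 CPM, a log2 difference of 0.43 (adjusted p = 0.372).

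**Figure D4:**
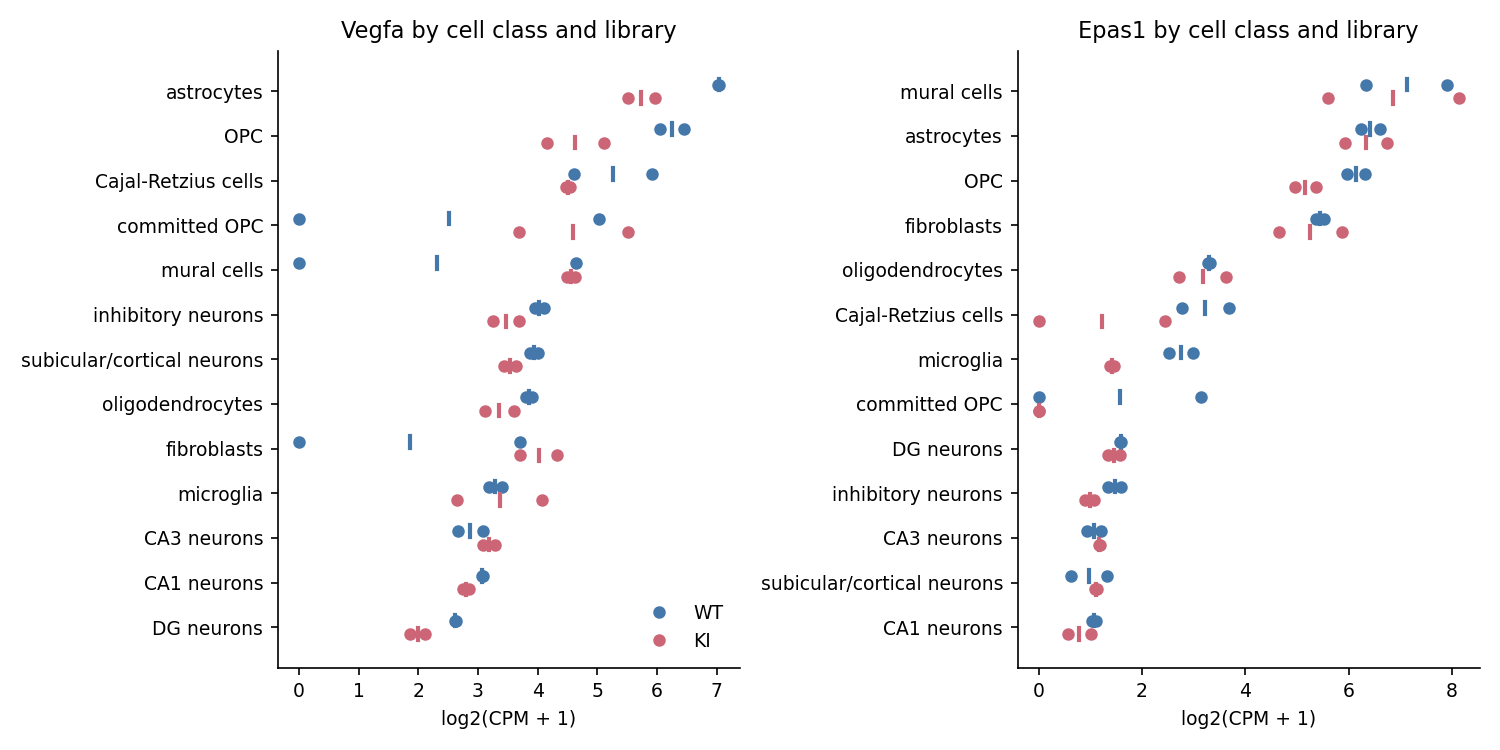
Vegfa and Epas1 in each library as log2(CPM + 1), by class, with points for libraries and short lines for genotype means. Vegfa in astrocytes is at 130 CPM in both WT libraries with the KI libraries lower, at 44.8 and 61.4 CPM, while Epas1 in astrocytes overlaps between genotypes.

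**Figure D5:**
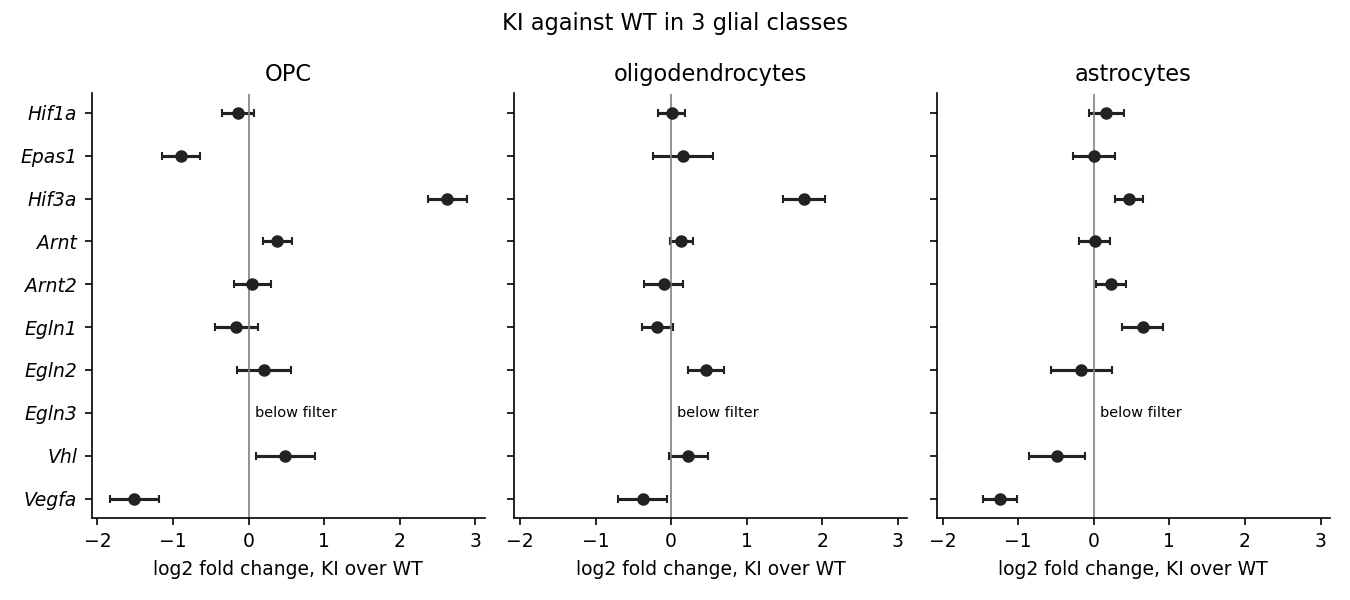
Log2 difference, KI minus WT, with bars of 1 SE, for each member in oligodendrocyte precursors, oligodendrocytes and astrocytes. Hif3a lies to the right of 0 in all 3 classes (2.63, 1.76 and 0.47) and Vegfa to the left (-1.51, -0.38 and -1.24), while Egln3 did not pass the filter.

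In oligodendrocyte precursors, 9 members passed the low-count filter. Of 10733 genes past it, 13.3% were higher in both KI libraries and 30.3% lower, in CPM, and nothing is read from the members' counts. Hif3a and Arnt were higher in both KI libraries, Hif1a, Epas1, Egln1 and Vegfa were lower in both, and the genotypes overlapped for Arnt2, Egln2, Egln3 and Vhl. Egln1 lay at 27.9, 29.8, 24.9 and 22.5 CPM, a log2 difference of -0.16 against its SE of 0.28. Arnt2 lay at 211, 192, 237 and 149 CPM.

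Other genes of the pathway were followed in 3 lists of 66 genes in all, HIF regulators, HIF targets and VEGF ligands and receptors. Of 521 tested pairs of a gene and a class outside precursors, 18 were called, 5 higher and 13 lower in KI. Over all genes in the same 12 classes, 3503 of 122250 pairs (2.87%) were called, 1.62% higher and 1.25% lower, and the lists are not set apart from that background here. The regulators had 5 of 139 pairs called, all lower, the targets 9 of 333, with 5 higher and 4 lower, and the VEGF genes 4 of 49, all lower. The median log2 difference of the targets was -0.11 in CA1 neurons, 0.14 in DG granule neurons and 0.02 in oligodendrocytes, beside 0.00 for all genes in each of these classes. The targets that were called lay in both directions.

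Arntl, a clock transcription factor related to Arnt, was lower in KI in 3 neuron classes. It lay at 94.97, 93.5, 58.9 and 56.1 CPM in CA1 neurons (log2 -0.61, adjusted p = 0.0226), at 49.4, 46.0, 24.3 and 24.6 CPM in CA3 neurons (-0.88, 0.0284) and at 51.2, 52.7, 34.1 and 32.0 CPM in DG granule neurons (-0.51, 0.0451). The libraries of each genotype lay close together and the genotypes did not overlap. Per the labels, brains of both genotypes were taken in the same afternoon hours. The part of time of day in the Arntl differences was not tested. The chaperone genes Hsp90aa1 and Hsp90ab1, whose products stabilise Hif1a protein, fell in inhibitory neurons, from 185 and 152 to 101 and 103 CPM (adjusted p = 0.0427) and from 282 and 226 to 147 and 155 CPM (adjusted p = 0.0373).

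Among targets, Ddit4, a stress-induced inhibitor of mTORC1, rose in oligodendrocytes from 39.5 and 31.2 to 155 and 96.3 CPM (log2 1.91, SE 0.26, adjusted p = 0.0134). In CA1 neurons, Ndrg1, a stress-responsive gene also found in myelinating cells, fell from 32.7 and 33.3 to 3.57 and 8.40 CPM (-2.38, adjusted p = 0.00710), Car12, a carbonic anhydrase, from 48.1 and 53.9 to 20.8 and 24.4 CPM (-1.08, 0.00734) and the repressor Bhlhe40 from 25.7 and 23.9 to 14.96 and 12.4 CPM (-0.75, 0.0450), while Pfkfb4, a regulator of glycolysis, rose from 29.2 and 29.2 to 37.7 and 52.1 CPM (0.71, 0.0344). Ndrg1 was among the leading genes of CA1 cluster 16, which held mostly WT nuclei. Within CA1 cluster 1 alone, Ndrg1 lay at 17.1, 13.1, 3.46 and 8.01 CPM, Car12 at 39.8, 44.3, 20.8 and 23.6 CPM and Bhlhe40 at 25.4, 23.4, 14.9 and 11.6 CPM, given without a test, and the part of the cluster make-up in the class values was not tested. In cluster 1 the values of Arntl were 106, 103, 60.4 and 57.7 CPM, and those of Pfkfb4 32.3, 32.3, 36.4 and 51.9 CPM. In DG granule neurons, Pfkp, a glycolytic kinase, rose from 41.6 and 48.3 to 89.8 and 70.4 CPM (0.98, 0.0179) and Bhlhe41, a repressor, from 18.7 and 19.8 to 35.4 and 25.9 CPM (0.82, 0.0474), while P4ha1, a collagen prolyl hydroxylase, fell from 112 and 112 to 73.3 and 75.9 CPM (-0.45, 0.0348). Nrp1, a VEGF co-receptor and guidance receptor, fell in DG granule neurons from 464 and 454 to 142 and 261 CPM (-1.06, 0.0416) and in inhibitory neurons from 104 and 87.9 to 45.7 and 49.6 CPM (-0.90, 0.0188). Of these 15 named results, 12 lost the call without WT library 1 and 8 without WT library 2, and Ndrg1, Car12 and Ddit4 were the 3 that stayed called whichever library was left out. Each of these was lost in another setting, Ndrg1 without doublet removal (adjusted p = 0.0891) and Car12 and Ddit4 with nuclei gated by markers (0.0617 and 0.375).

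The genes whose mean levels over the 13 classes were most like each member's were named by Pearson's r of log2(mean CPM + 1), among 14259 genes. The classes share libraries and ambient RNA, so r is a description. For Hif3a these were Cdh19 (0.959), Htra1 (0.947) and C4b (0.941), for Epas1, among others, Kctd12b (0.936) and Zfp503 (0.930), and for Vegfa Gm26512 (0.923), Mtss2 (0.894) and Chst2 (0.889). For Hif1a they were Phf7 (0.932), Cbfb (0.908) and Ccnq (0.899), for Arnt Morc2a (0.905), Mcoln1 (0.897) and Nemf (0.891), and for Arnt2 Npas3 (0.808), Nxpe4 (0.807) and Tmtc2 (0.797). For the hydroxylases they were Igsf8 (0.948), Nme2 (0.941) and Atp6v1f (0.938) with Egln1, Ppp2r1a (0.965) and Slc35b2 (0.962), among others, with Egln2, and Gm26797 (0.909), Lama1 (0.892) and Nectin2 (0.890) with Egln3. Vhl was most like Ier5 (0.852), Tab2 (0.842) and Polr1d (0.836).

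The other members lie, on GRCm38, at chr12:73901375-73947530 (Hif1a, plus strand), chr17:86753700-86833410 (Epas1, plus), chr3:95434388-95497240 (Arnt, plus), chr7:84246278-84410176 (Arnt2, minus), chr8:124908587-124949324 (Egln1, minus), chr7:27158658-27166802 (Egln2, minus), chr12:54178981-54203860 (Egln3, minus), chr6:113623959-113631633 (Vhl, plus) and chr17:46016993-46032369 (Vegfa, minus). A gene on the other strand overlaps Hif1a, Hif3a, Arnt2 and Egln2, and a gene on the same strand overlaps Hif1a, Epas1, Arnt and Arnt2. Whether counting used strand is not given in the sources used here.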

How the data were processed

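Libraries were 10x Genomics 3' single-nucleus RNA-seq. The authors deposited filtered matrices of UMI counts per gene and nucleus, made with Cell Ranger 7.0.1 per the file headers against mm10 per the submitters' processing notes. These counts were analysed in Python 3.11.15 with scanpy 1.11.5 and leidenalg 0.10.2. Nuclei with at least 500 genes and at most 5% mitochondrial UMIs were kept, Scrublet doublets were removed, and clusters (2000 variable genes without the members, 30 components, resolution 1) were named from marker lists. UMIs were summed per library and class. KI was compared with WT, 2 libraries each, by edgeR 4.0.16 in R 4.3.3 (filterByExpr, TMM, quasi-likelihood test, Benjamini-Hochberg adjustment, threshold 0.05), checked on simulated counts. For 1 duplicated symbol, Aldoa, the gene with more UMIs was kept. Depth per library is given above, and intervals and floors cover counting error only.

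The members and the lists were chosen with earlier results of these data known. Named were all members, up to 3 genes per list, direction and class with an adjusted p under 0.05, a mean of at least 10 CPM and no overlap of genotypes, and the 3 genes most like each member, of which some are not reported here. Each library came from 1 mouse, so p-values measure the spread between 2 mice per genotype. Alternatives, 14 planned and 2 added, were DESeq2 1.42.0, library totals, no low-count filter, at least 1000 genes, no doublet removal, other clusterings, marker gating, equal depth, a replicate block and leaving out each library.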

Additional observations from a re-analysis of the deposited data

Results flagged for a closer look

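Hif3a was also counted in nuclei that entered no comparison of a class, and in a class where it was not tested. In the 2011 to 4176 nuclei per library that were given no class name, it lay at 8.69 and 7.81 CPM in the WT libraries and at 26.3 and 23.2 CPM in the KI libraries. Of these nuclei, 8104 lay in 7 clusters with no marker list raised, where the values were 1.82, 2.43, 6.53 and 3.22 CPM in the order WT 1, WT 2, KI 1, KI 2. The other 2712 lay in 10 clusters that were mixed, doublet-like or led by mitochondrial or globin genes, with values of 24.9, 37.5, 138 and 76.6 CPM. Both KI libraries were above both WT libraries in each set. The part of mixed nuclei in the difference was not tested. In committed oligodendrocyte precursors, where the gene did not pass the low-count filter, the KI libraries had 5 and 6 Hif3a UMIs and the WT libraries had none. Both were picked out because the signal stood above the level in the WT libraries outside the main comparisons.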

How the results depend on the processing

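With 2 mice per genotype, the calls depended on single libraries. The 4 member calls outside oligodendrocyte precursors became 8 with no low-count filter and 2 with nuclei gated by their own markers, and ranged from 1 (without WT library 2) to 14 (without KI library 2) when a library was left out. The 18 pathway calls became 42 and 7 in the same settings, and ranged from 5 (without WT library 1) to 115 (without KI library 2). Over all nuclei, precursors included, the count of 0 members became 2 with DESeq2 and 1 each with no low-count filter and with at least 1000 genes per nucleus, and ranged from 0 to 3 when a library was left out. The Hif3a log2 difference in oligodendrocyte precursors was 2.63. It was 3.89 without doublet removal, 3.82 at a clustering resolution of 2 in place of 1 and 3.61 with nuclei gated by markers. In nuclei with no UMI of Mog, Mag, Mobp or Opalin, a restriction added after seeing the data, it was 3.58. When a library was left out, it ranged from 2.37 to 2.92. The cause of these shifts was not tested. Where a library was left out, the lone sample was assumed to vary like the other genotype's.

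Replicate numbers in the labels do not mark a shared litter or day, and the deviations of same-numbered libraries correlated at 0.08 over all nuclei, -0.14 in oligodendrocyte precursors and 0.48 in subicular or cortical excitatory neurons. With the replicate number as a block, 6 member pairs, 37 pathway pairs and 1 member over all nuclei were called. Of 428 alternative values for 31 single results, 336 kept direction and side of the threshold, 60 missed it, 32 newly passed it and 0 reversed. The 336 include values of results that were not called and stayed so, such as all 14 of Hif3a in astrocytes, so they do not measure how stable the calls were. Among called members, Egln3 in DG granule neurons lost the call in 8 of 14 alternatives and Hif3a in oligodendrocytes in 1 of 15.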

Other observations

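Other genes of the HIF lists in oligodendrocyte precursors were outside the tests, like the members there, and those named here were chosen after their values were seen. In the order WT 1, WT 2, KI 1, KI 2, the chaperone gene Hsp90aa1, on the list of HIF regulators, lay at 240, 227, 120 and 119 CPM (log2 difference -0.84, SE 0.19), the target P4ha1, a collagen prolyl hydroxylase, at 124, 107, 59.4 and 63.8 CPM (-0.78, SE 0.20) and the target Pgk1, a glycolytic enzyme, at 29.6, 36.2, 16.3 and 15.6 CPM (-0.91, SE 0.30). These 3 were lower in both KI libraries. Among targets on the other side, the transferrin receptor Tfrc lay at 22.7, 22.4, 38.3 and 34.4 CPM (0.80, SE 0.27), Pdk1, which restrains pyruvate entry into mitochondria, at 24.4, 19.2, 29.7 and 38.2 CPM (0.77, SE 0.30) and Ddit4 at 13.1, 4.26, 30.6 and 16.9 CPM (1.47, SE 0.52), all higher in both KI libraries. Of the 34 targets past the low-count filter in this class, 14 were lower in both KI libraries, 6 were higher in both and 14 overlapped, and of 13 regulators 7 were lower and 1 was higher. Over all genes in this class, 30.3% were lower and 13.3% higher in both KI libraries. Over the 34 targets, the median log2 difference was -0.11, beside 0.01 over all genes.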
